A study of Mus musculus with 2 samples.

Results

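The Ctrl library of dorsal skin held 1030 Pdgfra-positive cells with transcripts of Wif1, Hhip, Rspo3 or Gldn, of 11399 Ctrl cells kept and 19578 kept in the series. They were chosen by their measured UMIs, the distinct transcript molecules counted per cell. Barcodes outside 200 to 6000 genes, or above 10% mitochondrial UMIs, were removed. A remaining cell became a member when it had at least 1 UMI of Pdgfra, none of Ptprc or Pecam1, at least 3 UMIs summed over Wif1, Hhip, Rspo3 and Gldn (the gate genes), and fewer than 2 UMIs of Acta2. The other 4323 Pdgfra-positive Ctrl cells without Ptprc and Pecam1 formed the comparison class, and 524 of these had at least 2 UMIs of Acta2.

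The study profiled dorsal skin of female C57BL/6J mice aged 7 weeks with 10x Genomics 3′ single-cell RNA-seq. Hair was removed with a depilatory cream 24 hours before the first application to a 2 × 2 cm area. In the Ctrl group, 100% ethanol was applied daily, and in the AD group MC903 (calcipotriol, a vitamin D analogue used to provoke a dermatitis that resembles AD) was applied in ethanol at 4.5 nmol per application. Both groups were sampled on day 10 and each is 1 library, and the labels do not say how many mice went into it. No genotype other than the strain is given. The deposited matrices hold 125184653 UMIs over 12598 barcodes in Ctrl and 76106062 UMIs over 8778 barcodes in AD. The libraries share 35 barcodes, among them those of 2 Ctrl members and 1 AD member. With 1 library per condition there is no test, and every 95% interval here covers counting error only.

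The hair follicle is served by 2 mesenchymal compartments. The dermal papilla sits at the base of the bulb and sends Wnt, BMP and FGF signals to the matrix cells that build the hair shaft, and the dermal sheath is a contractile cup rich in smooth muscle proteins that wraps the follicle. In the growth phase, the papilla receives hedgehog ligand from the epithelium, and its genes include those of secreted Wnt regulators, a matrix proteoglycan and factors that act on melanocytes. Wif1 is a secreted inhibitor of Wnt ligands, Hhip binds hedgehog ligands and is itself a hedgehog target, Rspo3 enhances Wnt signalling through Lgr receptors, and Gldn is an extracellular adhesion protein known from the node of Ranvier. In the GRCm38 annotation of GENCODE M21, Wif1 lies at chr10:121033960-121100650 (plus strand), Hhip at chr8:79965851-80058006 (minus strand), Rspo3 at chr10:29452416-29535867 (minus strand) and Gldn at chr9:54286486-54341786 (plus strand), and all are protein-coding. The same annotation places Vcan at chr13:89655312-89742509 (minus strand) and Inhba at chr13:16011851-16031621 (plus strand).

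The members made up 19.2% of the Pdgfra-positive Ctrl cells (95% Clopper-Pearson interval 18.2 to 20.3%). Their median depth was 8164 UMIs and 3125 genes, against 9306 UMIs and 3085 genes in the comparison class, so the members were the shallower class. UMIs of Wif1 were present in 68.9% of the members, of Hhip in 63.7%, of Rspo3 in 56.3% and of Gldn in 68.2%. These values follow from the rule and are given as a description. Free RNA gives such UMIs to cells that do not express a gene, so the gate sum was also read in cells that should lack these genes. In Ptprc-positive Ctrl cells (median 4218 UMIs), 4.95% had at least 3 gate UMIs, and Epcam-positive cells (median 14315 UMIs) reached 7.01%. Each cell was then thinned to 2000 UMIs, which left out 160 shallower Pdgfra-positive cells, and the classes were called again on the thinned counts. Of the 3329 cells then Pdgfra-positive, 349 (10.5%) passed the whole rule. The gate sum was passed by 0.959% of Ptprc-positive and 1.75% of Epcam-positive cells.

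**Figure D1:**
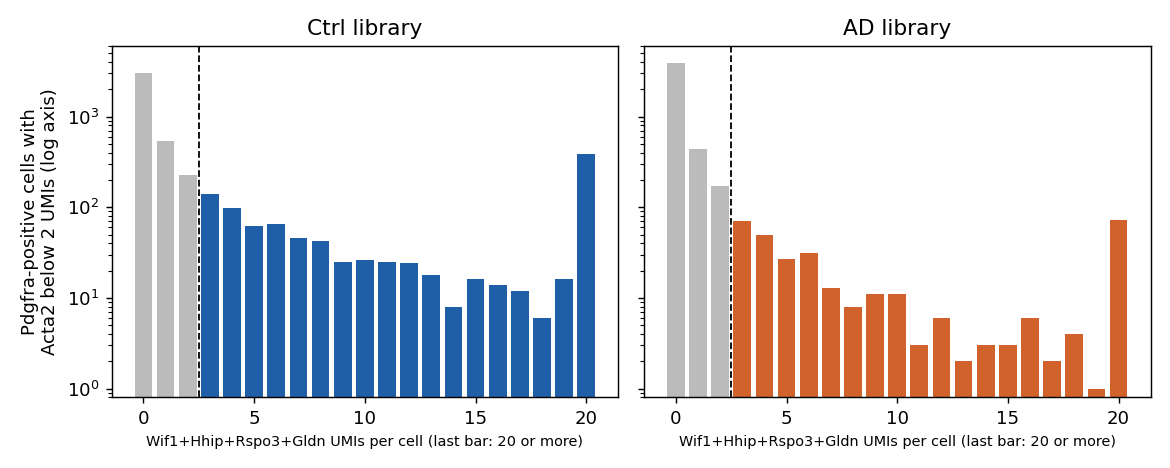
Number of Pdgfra-positive cells with fewer than 2 Acta2 UMIs (log axis) by their summed UMIs of Wif1, Hhip, Rspo3 and Gldn, for the Ctrl library (left) and the AD library (right). Bars to the right of the dashed line are members (1030 in Ctrl, 323 in AD), the last bar pools cells with 20 or more, and no gap separates members from non-members at the threshold.

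The cells just inside and just outside the threshold had similar sums of papilla genes. The 139 members with exactly 3 gate UMIs had 2182 CPM (UMIs of a gene per 1000000 UMIs of the class) summed over 30 dermal papilla genes, and the 224 cells with 2 gate UMIs, just outside, had 1857 CPM. The 502 members with 12 or more gate UMIs reached 20189 CPM. On the Acta2 side, the 112 members with 1 Acta2 UMI had 8504 CPM, while the 40 cells left out with 2 Acta2 UMIs had 4436 CPM and the 244 left out with 3 or more had 3444 CPM.

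Dermal papilla genes were higher in the members than in the other Pdgfra-positive Ctrl cells almost throughout the list. Of 30 genes, 28 reached 20 CPM in either class, and 26 of these were at least 2-fold higher in the members, with none 2-fold lower. Across all 7232 genes that reached this level, the 4 gate genes, Acta2, Pdgfra, Ptprc and Pecam1 left out, 5.7% were at least 2-fold higher and 4.72% at least 2-fold lower. The median log2 ratio was 2.78 for the dermal papilla list and 0.13 for all genes. Folds are log2 ratios of CPM with 1 CPM added. The genes of the list were summed to 11420 CPM in the members and 1835 CPM in the comparison class, and the median member had UMIs of 12 of the 30 genes against 5 in the comparison class.

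Vcan, which encodes the proteoglycan versican, was at 4568 CPM (4526 to 4610) in the members and 448 CPM (441 to 454) in the comparison class. Its UMIs were in 88.4% of the members and 73.7% of the other cells, so Vcan separated the classes by level more than by presence. Inhba, the activin A subunit, was at 465 CPM against 29.9 CPM. Corin, a membrane protease of the dermal papilla, was at 267 CPM (257 to 277) against 9.74 CPM (8.84 to 10.7). Of all Corin UMIs in kept Ctrl cells, 70.4% were in the members, against 59.6% for Vcan and 61.1% for Inhba.

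Transcription factors of the list showed the same direction. Lef1, a nuclear effector of Wnt signalling, was at 263 CPM in the members and 10.5 CPM in the comparison class. Trps1 was at 1029 against 117 CPM, Alx4 at 99.2 against 15.7 CPM, Prdm1 at 96.7 against 14.7 CPM and Sox18 at 61.3 against 19.8 CPM. Sox2, known from the papilla of a subset of hair types, was at 27.0 CPM against 2.31 CPM, and only 13.9% of the members had a UMI of it. Hey1, a Notch effector, was at 24.8 against 6.86 CPM. Tbx18, in contrast, was at 18.6 CPM in the members and 23.0 CPM in the other cells.

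Signals that the papilla sends were likewise higher in the members. Of the BMP ligands on the list, Bmp4 was at 184 against 35.7 CPM, Bmp6 at 62.5 against 5.24 CPM and Bmp3 at 57.6 against 9.35 CPM. Fgf10 was at 133 against 31.5 CPM and Fgf7 at 282 against 112 CPM. Wnt5a was at 346 against 83.9 CPM and Rspo1 at 198 against 46.5 CPM. The inhibitors Sostdc1 and Notum were at 254 against 12.1 CPM and at 41.9 against 0.983 CPM. The remaining higher genes were Crabp1, Prlr, Enpp2, Alpl, Spon1, Ndp and Pappa, with log2 ratios between 1.97 for Pappa and 5.05 for Crabp1. Igfbp3, the other exception besides Tbx18, was at 340 CPM in the members and 523 CPM in the comparison class. The BMP antagonist Nog stayed under 20 CPM in both classes.

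The result for dermal sheath genes depended on where the cells with 2 or more Acta2 UMIs were placed. The comparison class here included all 524 of them. Of 16 genes at 20 CPM or more, none was 2-fold higher and 3 were 2-fold lower, against 4.72% of all genes lower, and the median log2 ratio was -0.33. The lower genes were the smooth muscle genes Myh11 (4.46 against 66.4 CPM), Actg2 (6.69 against 46.8 CPM) and Tagln (53.5 against 187 CPM). Acta2 itself was limited by the rule in the members only, so these lower smooth muscle genes are given as a description of that choice. Tpm1 was at 548 against 419 CPM, Mef2c at 272 against 194 CPM and Itga8 at 31.9 against 16.8 CPM. Col11a1 had similar levels, 280 and 304 CPM, but its UMIs were in 54.3% of the members and 15.7% of the other cells. The direction of the sheath list changed with the comparison cells. When the 524 cells with 2 or more Acta2 UMIs were left out of the comparison class, an alternative chosen after seeing the data, its median log2 ratio was 1.83 with 10 of 14 genes higher, and that of the papilla list was 3.52. Without the Acta2 limit in the rule, the sheath median was 1.70 with 13 of 16 genes higher. Against comparison cells of matched depth, the sheath median was 0.29.

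**Figure D2:**
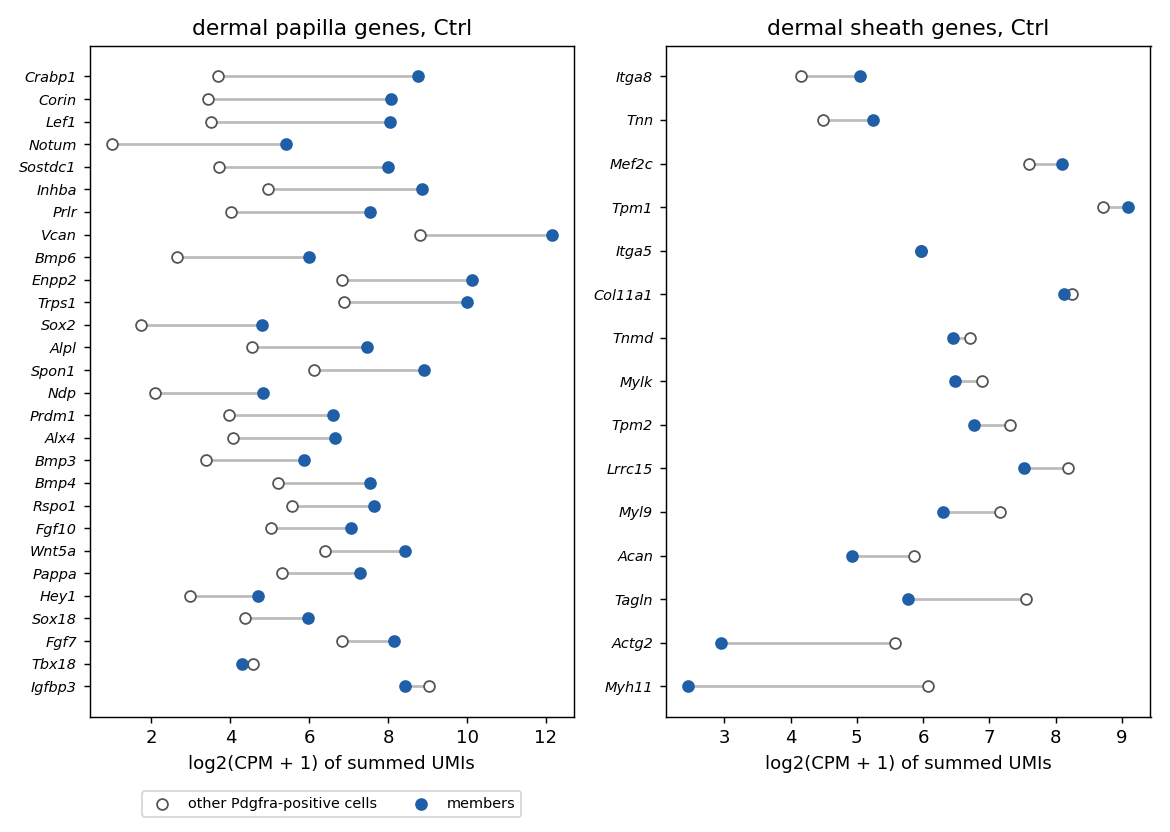
Levels of dermal papilla genes (left) and dermal sheath genes (right) with at least 20 CPM in either Ctrl class, as log2 of CPM plus 1 of summed UMIs, in the 1030 members (filled) and the 4323 other Pdgfra-positive cells (open). All papilla genes but Tbx18 and Igfbp3 lie at least 2-fold to the right in the members, while sheath genes lie on both sides.

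Set directly against the 524 Ctrl cells with 2 or more Acta2 UMIs, the members had higher papilla and lower sheath genes. Acta2 is itself a smooth muscle gene of the sheath, and the rule separated these classes by it, so the sheath genes are given as a description of that choice. Of 29 papilla genes that reached 20 CPM, 22 were at least 2-fold higher and 1, Tbx18 (18.6 against 69.7 CPM), was lower, where 6.72% of 7391 genes were higher and 4.65% lower. Of 17 sheath genes, 15 were lower and 1 was higher, with a median log2 ratio of -2.51. Tagln was at 53.5 against 1020 CPM, Lrrc15 at 183 against 1448 CPM, Acan at 29.3 against 315 CPM and Col11a1 at 280 against 1593 CPM. The cells with Acta2 were deeper (median 13717 UMIs), and 284 of them also had at least 3 gate UMIs. These 284 cells had the sum the rule asks for and were left out for Acta2 alone. Cell cycle genes were lower in the members for 15 of 20 genes.

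The members did not form 1 uniform class. By the number of gate genes with at least 1 UMI, 291 members (28.3%) had 1, 225 had 2, 149 had 3 and 365 (35.4%) had all 4. Summed papilla genes were at 2160 CPM in members with 1 gate gene, close to the 1835 CPM of the comparison class, at 3555 CPM with 2, at 14765 CPM with 3 and at 23850 CPM with 4. The median cell had 6, 8, 15 and 20 papilla genes, respectively. The median depths were 9486, 8028, 6297 and 8145 UMIs, so members with 1 gate gene were the deepest. At least 2-fold higher than in the comparison class were 4 of 18 papilla genes in members with 1 gate gene, 14 of 22 with 2, 26 of 28 with 3 and 27 of 29 with 4, with median log2 ratios of 0.44, 1.29, 3.17 and 3.86. Of all genes tested in the same 4 comparisons, 0.722%, 2.14%, 12.1% and 14.2% were at least 2-fold higher, with medians of 0.02, 0.09, 0.20 and 0.25. The gate genes and the papilla genes come from the same cells, so this is a description of the gate and no independent check.

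Single genes followed the same steps. Corin was at 12.2 CPM with 1 gate gene, 42.3 CPM with 2, 341 CPM with 3 and 620 CPM with 4. Vcan went from 499 to 683, 5513 and 10462 CPM, and Sostdc1 from 5.13 to 27.2, 236 and 629 CPM. Pi16 and Col1a1 ran the opposite way. Pi16, a marker of adventitial fibroblasts, was at 1029 CPM with 1 gate gene and at 99.1 CPM with all 4. Col1a1, the main fibrillar collagen, was at 14001 CPM with 1 gate gene, 11235 CPM with 2, 3403 CPM with 3 and 1255 CPM with 4, against 11610 CPM in the comparison class. By the papilla genes alone, the label of follicle mesenchyme best describes the members with 3 or 4 gate genes, 149 and 365 of the 1030 cells. Members with 1 gate gene were near the other Pdgfra-positive cells in summed papilla genes. Of their 18 papilla genes, however, 4 were at least 2-fold higher, among them Crabp1 (93.2 against 11.9 CPM). Members with 2 gate genes lay between, with 14 of 22 higher.

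Sheath genes went both ways over these steps. Lrrc15 was at 267 CPM with 1 gate gene, 307 CPM with 2, 64.6 CPM with 3 and 61.4 CPM with 4, and at 30.2 CPM in the 3033 cells of the comparison class that had no gate UMI and fewer than 2 Acta2 UMIs. Mylk, the kinase of myosin light chains, was at 111, 120, 70.5 and 53.6 CPM, against 32.4 CPM in the cells without a gate UMI. Both genes were thus highest in the members with 1 or 2 gate genes. Col11a1 rose from 203 CPM with 1 gate gene to 211, 334 and 377 CPM. Tpm1 rose from 279 to 310, 581 and 935 CPM, and Mef2c from 167 to 246, 272 and 384 CPM. With 1 gate gene, Col11a1 and Tpm1 were already above the cells without a gate UMI, which had 19.2 and 150 CPM. Among members with a single gate gene, those with Wif1 alone had 603 CPM of Lrrc15, 405 CPM of Col11a1 and 76.5 CPM of Acan, while those with Hhip alone had 114 and 8.87 CPM of the first pair and no UMI of Acan. Against the whole comparison class, the sheath list had medians of -0.40, 0.03, -0.45 and -0.91 with 1, 2, 3 and 4 gate genes. This class includes the cells with 2 or more Acta2 UMIs. At least 2-fold higher were 0 of 16, 2 of 17, 2 of 16 and 1 of 16 genes. Of all genes tested in the same comparisons, 0.722%, 2.14%, 12.1% and 14.2% were at least 2-fold higher.

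Which gate gene a cell held also mattered. The 74 members with UMIs of Hhip alone had 1.11 CPM of Corin and 1597 CPM of papilla genes in sum, and the 97 with Wif1 alone had 30.9 and 2285 CPM. The 106 members with Gldn alone had 1.12 CPM of Corin, 1399 CPM of Pi16 and 1921 CPM of Coch. The Schwann cell genes S100b and Sox10 were at 34.5 against 5.35 CPM and at 1.12 against 0.389 CPM in all members and the comparison class. The 48 members with Wif1 and Gldn but neither Hhip nor Rspo3 had 1087 CPM of Fmod and 3836 CPM of Coch. Members with all 4 had 22.2 and 47.5 CPM. Over all Ctrl members, 10 cells held 64.0% of the Fmod UMIs and 10 held 48.2% of the Coch UMIs. The levels of both genes thus rest in part on few cells.

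**Figure D3:**
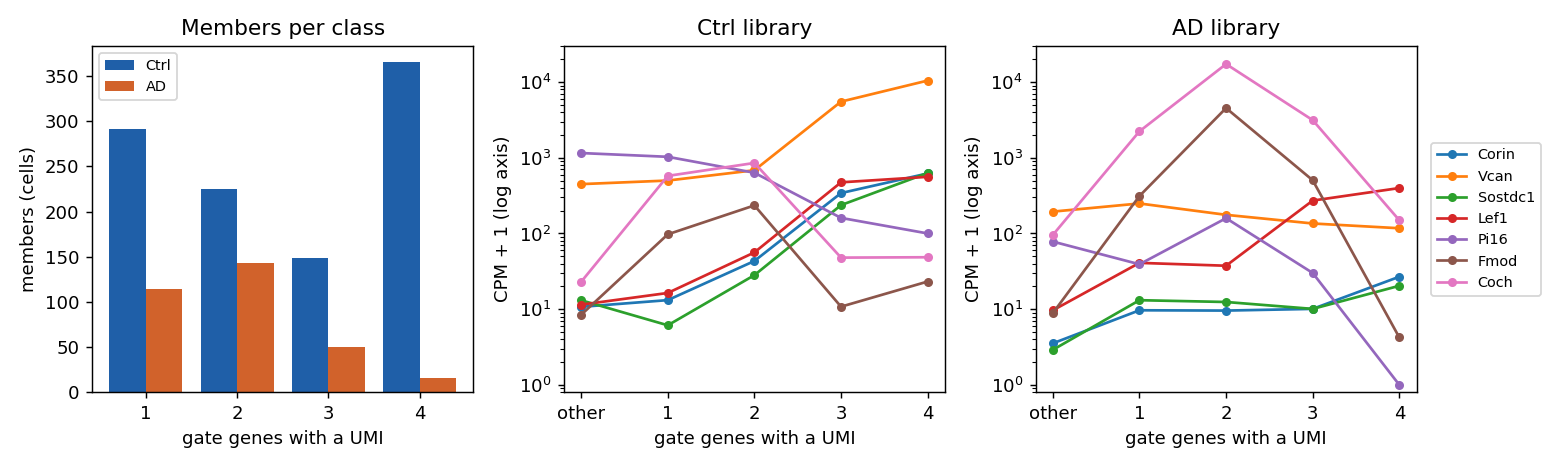
Number of members by how many of the 4 gate genes they hold (left), and CPM plus 1 (log axis) of 7 genes in the other Pdgfra-positive cells and in members with 1, 2, 3 or 4 gate genes, for Ctrl (middle) and AD (right). In Ctrl, Corin, Vcan, Sostdc1 and Lef1 climb with the number of gate genes and Pi16 declines, while in AD Vcan declines. In both libraries, Fmod and Coch peak at 2 gate genes.

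The genes with the largest ratios in the Ctrl members, at 50 CPM or more and outside the rule, were, in order, Gm14226, Scube1, Edn3, Rspo2, Slc26a7, Dcc, Slc5a7, Ptprz1, F5, Unc5c, Draxin, Crabp1, Scube3, Corin and Lef1, with log2 ratios from 6.05 down to 4.53. Edn3, the endothelin that acts on melanocytes, was at 212 CPM (203 to 222) against 3.41 CPM. Rspo2, like Rspo3 an enhancer of Wnt signalling, was at 101 CPM against 1.28 CPM, with a UMI in 34.3% of the members and 0.948% of the other cells. Scube1 and Scube3, secreted proteins of which Scube3 is known as a papilla signal, were at 115 against 1.39 CPM and at 244 against 8.76 CPM. F5, coagulation factor V, was at 337 against 7.75 CPM. Dcc and Unc5c, receptors for the guidance protein netrin, were at 78.7 against 0.915 CPM and at 96.6 against 1.58 CPM, and Draxin, a secreted guidance protein, was at 108 against 2.03 CPM. Slc5a7, the choline transporter, was at 59.7 against 0.480 CPM. Gm14226, at 251 against 2.81 CPM, had its UMIs in 15.7% of the members, and its highest member held 116 of its 2474 UMIs. Slc26a7 was as uneven, with 31.4% of its UMIs in 10 members.

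The genes with the lowest ratios were Flg, Crct1, Flg2, Lor, Asprv1, Myh11, Ednrb, Thbs4, Calm4 and Fam25c, mostly genes of cornifying keratinocytes. Flg was at 5.58 against 144 CPM, but a UMI of it was in 5.15% of the members and 4.997% of the other cells, and 93.8% of its UMIs in the other cells were in 10 cells. Lor was alike, with 14.1% and 13.5% of cells and 94.0% of the UMIs in 10 cells. These ratios rest on a few cells of the comparison class. Over the whole keratinocyte list, 7 of 11 genes were lower, against 4.72% of all genes, and the list was summed at 791 CPM in the members and 2078 CPM in the comparison class, with Lgals7 as its most abundant gene (197 against 409 CPM). Ednrb, an endothelin receptor, was at 10.3 against 113 CPM and in 5.83% against 10.3% of cells, and Thbs4 at 13.1 against 92.8 CPM.

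Of 10 Wnt target genes counted, 6 were at least 2-fold higher and none lower, where 5.7% of all genes tested were higher and 4.72% lower. They include Lef1, Notum, Nkd2 (108 against 21.7 CPM) and Apcdd1 (365 against 151 CPM). The feedback target Axin2 was at 44.6 against 22.5 CPM, just under 2-fold. The lists overlap, and Lef1 and Notum are on the papilla list too. Of 20 Wnt ligands, receptors and inhibitors, 8 were higher, including Rspo4 (25.9 against 1.07 CPM), the receptor Lgr4 (106 against 35.3 CPM) and the inhibitors Dkk2 (169 against 56.8 CPM) and Frzb (46.1 against 4.73 CPM). The 3 lower were Wnt2, Sfrp2 and Sfrp4, the last at 24.4 against 154 CPM. Of 10 hedgehog pathway genes, 4 were higher. Among them were the receptor Ptch1 (501 against 107 CPM), which is also a target, and the factors Gli1 (86.4 against 28.9 CPM) and Gli3 (108 against 48.1 CPM). The hedgehog difference was smaller against the 524 Ctrl cells with 2 or more Acta2 UMIs. There, 1 of 10 genes was higher and none lower, where 6.72% of all genes were higher and 4.65% lower. The median log2 ratio was 0.33, and Ptch1 was at 501 against 317 CPM.

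Notch and FGF genes were higher in part. Of 8 Notch genes, 5 were higher, against 5.7% of all genes, with the effector Hey2 at 74.0 against 4.25 CPM, the receptor Notch1 at 112 against 34.2 CPM and the ligand Jag1 at 157 against 49.1 CPM. Of 8 FGF genes, 4 were higher, with the receptor Fgfr1 at 805 against 262 CPM and Fgfr2 at 167 against 67.8 CPM. In the list of BMP, TGF-beta and activin genes, 6 of 28 were higher and 1, the BMP antagonist Chrdl1 (38.6 against 210 CPM), was lower, against 4.72% of all genes. Bmp7 was at 80.5 against 18.2 CPM, and the BMP target Id3 at 437 against 560 CPM. Of 6 genes that signal to melanocytes, 3 were higher. They were Edn3, Corin and the agouti gene a (40.7 against 9.99 CPM), and Edn1 was lower at 7.20 against 37.5 CPM. The Notch difference was smaller against the 524 Ctrl cells with 2 or more Acta2 UMIs. Of 9 Notch genes counted there, 1 was higher and 1 lower, where 6.72% of all genes were higher and 4.65% lower. Their median log2 ratio was 0.07.

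Few matrix genes differed by 2-fold. Of 18 fibrillar matrix genes, 3 were lower (Fn1 at 682 against 1533 CPM, Tnxb at 219 against 497 CPM and Mfap5 at 168 against 345 CPM) and 1, Fmod, was higher (92.6 against 7.43 CPM). UMIs of Fmod were in 7.18% of the members, and 10 members held 64.0% of them, so its level rests on few cells. With 5.7% of all genes higher and 4.72% lower, 1 of 18 higher is the background share, and the 3 lower are too few for a statement on the list. Col1a2 was at 10109 against 14780 CPM and Dcn at 6405 against 12394 CPM. Of 13 basement membrane genes, Frem1 (182 against 20.1 CPM) and Col15a1 (677 against 304 CPM) were higher and none lower. Among 13 genes of proteoglycans and hyaluronan, Vcan, Spock1 (70.6 against 2.26 CPM) and Sdc1 were higher, and the hyaluronan synthases Has1 (186 against 693 CPM) and Has2 (51.7 against 111 CPM) were lower.

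Genes of adventitial fibroblasts and of inflammation were lower in the members than in the whole comparison class. Of 12 adventitial fibroblast genes, 10 were lower, where 4.72% of all genes were lower and 5.7% higher, such as Clec3b (239 against 832 CPM), Dpp4 (113 against 305 CPM) and Ly6a (590 against 1318 CPM). Of 14 inflammation genes, 10 were lower and none higher. The chemokine Ccl2 was at 116 against 516 CPM, Cxcl13 at 45.7 against 298 CPM and the cytokine Il6 at 68.9 against 219 CPM. Neither list was lower against the 524 Ctrl cells with 2 or more Acta2 UMIs. There, 4 of 12 adventitial genes were higher and none lower, with a median log2 ratio of 0.65. Of 13 inflammation genes, 3 were higher and none lower, with a median of 0.63. Of all genes in that comparison, 6.72% were higher and 4.65% lower. Immediate early genes, which also respond to tissue dissociation, were summed at 17067 CPM in the members and 26304 CPM in the comparison class, with 1 (Atf3) of 13 at least 2-fold lower. Their part in the inflammation genes was not tested. The papillary and the preadipocyte lists had genes past 2-fold in both directions. Of 9 papillary fibroblast genes, 2 (Apcdd1 and Col23a1) were higher and 1 (Efhd1) lower, and of 12 preadipocyte and reticular genes 2 (Cebpa and Fabp4) were higher and 4 (Gpx3, Mgp, Fmo2 and F3) lower. Of 2 hair matrix and inner root sheath genes, Tchh was higher (20.8 against 4.98 CPM). None of 10 cell cycle genes was 2-fold different. Leukocyte genes were summed at 57.9 against 75.7 CPM and endothelial genes at 32.8 against 43.1 CPM, pericyte genes at 260 against 287 CPM, melanocyte genes at 73.6 against 178 CPM and erythroid genes at 520 against 673 CPM. Schwann cell and perineurium genes went the other way. They were summed at 246 CPM in the members and 85.3 CPM in the comparison class, and 2 of the 3 that reached 20 CPM were higher, with a median log2 ratio of 2.48. The part of Schwann cell RNA in the values of the members was not tested.

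The same gate found 323 cells in the AD library, 6.60% (5.92 to 7.33%) of 4894 Pdgfra-positive cells. Called again after thinning to 2000 UMIs, the shares were 2.57% in AD (88 of 3427 cells) and 10.5% in Ctrl (349 of 3329). In AD, 381 shallower Pdgfra-positive cells were left out. The AD members were not shallower, with a median of 8941 UMIs. The background of the gate was lower in AD, with at least 3 gate UMIs in 0.574% of Ptprc-positive and 4.82% of Epcam-positive cells. Cells with 2 or more Acta2 UMIs were also fewer, 59 against 524. With 1 library each, an effect of MC903 and other differences between the libraries cannot be told apart.

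The AD members held fewer of the gate genes. Only 16 of 323 had all 4, 50 had 3, 143 had 2 and 114 had 1. Gldn was at 498 CPM in AD members and 598 CPM in Ctrl members and Wif1 at 556 and 881 CPM, but Hhip was at 91.5 against 607 CPM and Rspo3 at 141 against 506 CPM. UMIs of Hhip were in 33.4% of the AD members, against 63.7% in Ctrl. Hhip and Gldn occurred together in 5.57% of the AD members and 44.9% of the Ctrl members.

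Relative to the other Pdgfra-positive AD cells, the AD members had a papilla list of which 13 of 18 genes were at least 2-fold higher and 1 lower, with a median log2 ratio of 2.18, where 5.32% of 6559 genes were higher and 5.46% lower. Lef1 was at 108 against 8.66 CPM, Prlr at 312 against 41.6 CPM and Enpp2 at 1785 against 82.1 CPM. The lower gene was Igfbp3 (2731 against 8048 CPM), which took the sum of the list to 6801 CPM in the members and 8840 CPM in the other cells. Corin was at 10.3 CPM in the AD members, and Vcan at 188 CPM against 193 CPM, without a difference beyond counting error. Of 9 sheath genes 4 were higher, and the median log2 ratio was 0.70.

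Set side by side, the AD members had less of the papilla genes than the Ctrl members. Of 28 genes, 19 were at least 2-fold lower and 2, Igfbp3 and Tbx18, higher, where 15% of 7328 genes were lower and 7.07% higher. Vcan was at 188 CPM (174 to 203) against 4568 CPM, Corin at 10.3 CPM (7.15 to 14.3) against 267 CPM, Sostdc1 at 12.02 against 254 CPM and Sox18 at 1.47 against 61.3 CPM. Bmp4 was at 189 and 184 CPM, Prdm1 at 143 and 96.7 CPM, Enpp2 at 1785 and 1118 CPM and Prlr at 312 and 186 CPM. Members with 3 or 4 gate genes showed the same in part. In the 16 AD cells with all 4, Lef1 was at 397 CPM, near the 559 CPM of such Ctrl cells, but Vcan was at 116 CPM against 10462 CPM and Corin at 25.8 against 620 CPM. Keratinocyte genes were summed at 68.3 CPM in AD members and 791 CPM in Ctrl members and erythroid genes at 29.6 and 520 CPM, and the part of such RNA from other cells in the differences was not tested.

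**Figure D4:**
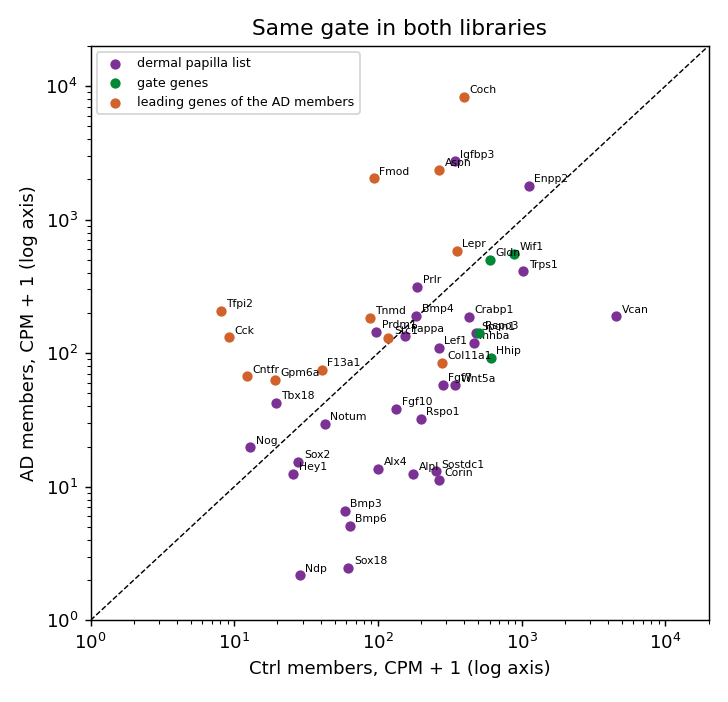
CPM plus 1 (log axes) in the 323 AD members against the 1030 Ctrl members for genes of the dermal papilla list, the gate genes and the genes with the largest ratios in the AD members. The dashed line marks equal levels, and Vcan, Corin, Sostdc1 and Sox18 lie far below it while Fmod, Coch and Aspn lie far above.

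The genes that led the AD members were other ones, and they are named here after their values were seen. Of the 15 with the largest ratio over other AD cells, Crabp1 and Lef1 were among the 15 of Ctrl. The first were Fmod (2044 against 7.88 CPM), which encodes the collagen-binding fibromodulin, Coch (8362 against 94.6 CPM), which encodes the secreted protein cochlin, Cck (131 against 1.18 CPM) and, after Crabp1, Tnmd (182 against 5.80 CPM), known from tendon. Aspn, another small leucine-rich proteoglycan, was at 2371 against 109 CPM. Fmod, Coch and Aspn were highest in 1 combination of gate genes. The 83 AD members with Wif1 and Gldn but neither Hhip nor Rspo3 (25.7% of the AD members) had 7592 CPM of Fmod, 27808 CPM of Coch and 8240 CPM of Aspn, and no UMI of Corin or Lef1, which allows up to 3.6 CPM of either (3 counts of 832271 UMIs). Other AD members with Gldn also held these genes, with 8357 CPM of Coch and 1235 CPM of Fmod in the 34 with Gldn alone and 11712 and 1922 CPM in the 16 with Wif1, Rspo3 and Gldn. The corresponding 48 Ctrl members were 4.66% of theirs. A UMI of Fmod was in 107 AD members, and its highest cell held 300 of 6971 UMIs, so no single cell carried it. In none of the 4 AD classes by number of gate genes did Corin exceed 25.8 CPM or Vcan 248 CPM. Over the whole papilla list, 9 of 17 genes were at least 2-fold higher than in the other AD cells in members with 1 gate gene, 10 of 17 with 2, 17 of 21 with 3 and 18 of 23 with all 4, with median log2 ratios of 1.31, 1.16, 2.86 and 3.14. Of all genes tested in these comparisons, 2.9%, 6.24%, 11.9% and 15.5% were at least 2-fold higher, with medians of -0.03, 0.01, 0.10 and 0.13, and the classes of 3 and 4 gate genes held only 50 and 16 cells. The Ctrl members with 3 and 4 gate genes had medians of 3.17 and 3.86 against their own comparison class.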

How the data were processed

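Dorsal skin was profiled in 1 Ctrl and 1 AD library (10x 3′ chemistry v3.1). The deposited values are raw UMI counts per gene and barcode, made by the authors with Cell Ranger on mm10. Its version is 6.0.0 in the methods, 3.1.0 in the submitters' processing notes and 5.0.0 in the matrix headers. The matrices were not normalized, and the cell filter had not been applied to them.

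Class levels are CPM, from UMIs added up across member or comparison cells. Ratios are log2 with 1 CPM added, and intervals are exact Poisson (sums) or Clopper-Pearson (shares), both 95%. Genes with 20 CPM in either class were counted, and a log2 ratio of 1 or more in size was called. Cells are not replicates, so no test was made. The members and the gene lists were chosen with earlier results of these data known. Genes are named by a rule: the rule genes, the markers, both follicle lists, the 15 highest and 10 lowest ratios at 50 CPM or more, and from other lists up to 4 genes by level and those past the threshold. Thinning drew 2000 UMIs per cell (seed 0). Of 33904 gene identifiers, 32475 were found in GENCODE M21. Doublets were left in and removed with Scrublet (expected rate 0.06) as an alternative. On simulated counts for the members against the other Ctrl cells (7232 genes), 198 of 200 changed genes were recovered within 0.5. Some genes of the lists are counted but not reported by name here or drawn in the figures. Tools were Python 3.11.15, scanpy 1.11.5, numpy 2.4.6 and scipy 1.17.1.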

Additional observations from a re-analysis of the deposited data

How the results depend on the processing

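The values are limited by counting depth and by having 1 library per condition. The doublet caller marked 3.54% of Ctrl barcodes and 0 of 8778 AD barcodes, so it had not worked in AD and gave no AD value. The requirements of at least 2 or of all 4 gate genes, the removal of shared barcodes and the comparison cells with fewer than 2 Acta2 UMIs were chosen after seeing the data. The number of Ctrl members (1030) was 349 after thinning and 365 with all 4 gate genes, and it stayed within 1.5 times of 1030 under the other 10 alternatives. The number of AD members (323) was 493 with 2 gate UMIs, 204 with 5, 88 after thinning, 209 with at least 2 gate genes and 16 with all 4.

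The median log2 ratio of the papilla list (2.78) ranged from 2.10 to 3.77 over its alternatives and at least 26 genes of 27 to 30 were 2-fold higher, except with a minimum of 100 CPM (17 of 18 genes). It was 2.52 with 2 gate UMIs, 3.14 with 5, 3.05 without the Acta2 limit, 2.77 with the stricter barcode filter, 3.49 after thinning, 2.10 with 10 CPM added, 3.02 with a minimum of 100 CPM, 3.06 against cells of matched depth, 3.77 against cells without gate or Acta2 UMIs, 3.52 against cells with fewer than 2 Acta2 UMIs, 3.30 with at least 2 gate genes and 3.47 with all 4. The sheath list (-0.33) did not keep its direction. It was 1.70 without the Acta2 limit, 2.05 against cells without gate or Acta2 UMIs, 1.83 against cells with fewer than 2 Acta2 UMIs, 0.29 against cells of matched depth and 0.11 after thinning, and -0.51 with all barcodes, -0.13 with the stricter filter, -0.11 with mean per-cell CPM, -0.47 with at least 2 gate genes and -0.86 with all 4. No paired analysis was possible because each group has 1 library.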
